A study of Mus musculus with 9 samples.

Results

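The MHC class II genes are described here through 10 members, taken by name from a blood table of 23499 genes: H2-Aa, H2-Ab1, H2-Eb1, Cd74, H2-DMa, H2-DMb1, H2-DMb2, H2-Oa, H2-Ob and Ciita. All 10 of the 10 names had a row. H2-Aa and H2-Ab1 encode the alpha and beta chains of the class II molecule I-A, and H2-Eb1 encodes the beta chain of I-E. Cd74 is the invariant chain, which occupies the peptide groove while the molecule travels to the endosome. H2-DM, built from H2-DMa and an H2-DMb chain, exchanges the last invariant-chain fragment for antigen peptides, and H2-O, built from H2-Oa and H2-Ob, inhibits H2-DM. Ciita is the master transactivator of the whole set. In the GRCm38 genome (GENCODE M21) 8 of the 10 lie on chromosome 17, Cd74 on chromosome 18 and Ciita on chromosome 16.

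Class II molecules show peptides from ingested material to CD4 T cells. Dendritic cells, B cells and macrophages are the usual carriers, neutrophils carry little at rest, and B cells are known to switch the genes off as they become plasma cells. H2-O is known mainly from B cells and some dendritic cells.

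Peripheral blood cells came from 129SvE females, 4 of them labelled Healthy (mice 1 to 4, disease stage 0) and 5 labelled Sick with rheumatoid arthritis, a mouse model of joint inflammation (mice 1, 3, 4, 5 and 6, stages between 1.5 and 2.5). The labels give no age and do not say how arthritis was induced. Cells were read by Seq-Well, which pairs single cells with barcoded beads in small wells and reads transcripts from the polyA end. Each barcode column of the table carries a mouse and a cell class named by the authors: 1301 columns were of the B cell class, 1905 granulocyte, 450 CD4 T, 331 foxP3 T, 193 myeloid progenitor and 122 myeloid dendritic. Values are given as signal per 1000000 of the summed signal (SPM).

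Total signal was 330950 to 2053973 in healthy mice (26 to 201 columns) and 8350920 to 13557201 in arthritic mice (502 to 1027 columns), so healthy values rest on less material. Of the 4310 blood columns, 1313 held the same value as another column in all genes, 59 of the 302 healthy columns were identical to an arthritic one, and 719 blood columns were identical to a column of the joint table. Of 4309 distinct barcodes, 1 occurred in more than 1 mouse. Hemoglobin took between 0.630% and 55.0% of a mouse's signal. Pooled over mice, the B cell and granulocyte names matched their markers. Of 14 B cell markers 13 were highest in the B cell class, and 10 of 10 granulocyte markers in the granulocyte class. In the myeloid dendritic class 8 of 10 dendritic cell markers were highest. The CD4 T class held the highest level of 12 of 12 T cell markers, those of CD8 T cells included (Cd8b1 at 227 SPM beside Cd4 at 119), so it is a T cell class whose markers do not single out CD4 cells. The foxP3 T class held the highest level of 0 of 12 T cell markers and of 7 of 8 NK cell markers, so its name goes against its markers and is used only as the authors' label. The myeloid dendritic class also held the highest level of 10 of 13 monocyte and macrophage markers, which summed to 11002.5 SPM. Its dendritic cell markers summed to 318 SPM, beside 364 in the CD4 T class. Its markers thus do not single out dendritic cells, and dendritic is used below as the authors' label.

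H2-DMb2 (chr17:34143307-34151555) and H2-DMb1 (chr17:34153072-34160230) are neighbouring copies on the plus strand. Their promoters are shown whole because the cell classes described below differ in the balance of these copies. RefSeq promoter windows (GRCm38.p6, 250 bases before to 50 after the start) were matched for 7 of the 10 genes, H2-DMa with 2 windows. The RefSeq start of H2-DMb2 lies inside the GENCODE gene. Capitals mark matches on either strand to the core CNNATGATG of the X box and to the Y box, ATTGG, known as the CCAAT box when read on the other strand, which lie side by side in class II promoters, and to TGACGTCA. The matches do not overlap each other.
H2-DMb1, chr17:34152941-34153240, plus strand: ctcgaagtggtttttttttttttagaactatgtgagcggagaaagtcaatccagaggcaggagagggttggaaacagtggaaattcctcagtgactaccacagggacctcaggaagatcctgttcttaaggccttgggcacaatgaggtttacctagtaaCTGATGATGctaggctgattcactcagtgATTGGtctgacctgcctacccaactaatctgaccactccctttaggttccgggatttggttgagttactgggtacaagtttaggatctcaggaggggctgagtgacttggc
H2-DMb2, chr17:34144999-34145298, plus strand: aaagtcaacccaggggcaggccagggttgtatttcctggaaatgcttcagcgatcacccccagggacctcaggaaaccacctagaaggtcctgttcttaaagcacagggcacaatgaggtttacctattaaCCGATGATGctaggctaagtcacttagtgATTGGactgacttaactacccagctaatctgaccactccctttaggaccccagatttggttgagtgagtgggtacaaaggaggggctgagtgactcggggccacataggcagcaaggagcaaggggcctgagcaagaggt
The windows around the motifs of 4 further members are shown to set the spacing side by side.
H2-Eb1, chr17:34305765-34305827, plus strand: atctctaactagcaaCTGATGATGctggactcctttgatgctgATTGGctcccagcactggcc
H2-Ob, chr17:34238807-34238867, plus strand: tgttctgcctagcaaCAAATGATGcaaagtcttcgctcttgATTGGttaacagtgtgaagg
H2-Aa, chr17:34287852-34287912, minus strand: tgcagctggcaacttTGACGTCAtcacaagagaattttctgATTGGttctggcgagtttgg
H2-Oa, chr17:34092286-34092355, plus strand: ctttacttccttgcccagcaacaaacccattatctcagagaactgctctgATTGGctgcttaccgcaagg

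The X-box core matched 4 of the 8 windows, against 2.75% of 32851 promoters in the table. The Y box matched 7 of the 8 windows and 37.4% of all promoters. TGACGTCA matched 1 window, that of H2-Aa, and 1.79% of all promoters. The gap between the X-box core and the Y box was 20 bases in both H2-DMb promoters, 19 in H2-Eb1 and 17 in H2-Ob, and 18 bases separated TGACGTCA from the Y box in H2-Aa. H2-DMb1 and H2-DMb2 both keep the pair, and 215 of 345 aligned positions (62.3%) of their windows were identical. A match describes letters only and shows no binding.

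In blood, class II signal was highest per unit of total signal in the myeloid dendritic class, next in the B cell class and lowest in myeloid progenitors (classes were made from the same expression values, so the levels are a description without a test). Means below are over mice with at least 5 columns of a class, healthy and arthritic together. Cd74 averaged 7307 ± 2540 SPM in myeloid dendritic columns (SD, n = 4, all arthritic) and 3296 ± 759 in B cells (n = 8). It averaged 1711 ± 436 SPM in CD4 T (n = 6), 1047 ± 515 in granulocytes (n = 9), 951 ± 403 in foxP3 T (n = 7) and 196 ± 100 in myeloid progenitors (n = 4). The dendritic mice, 5297 to 10923 SPM, did not overlap the B cell mice, 2129 to 4530, whereas B cells overlapped CD4 T, CD4 T overlapped granulocytes, and granulocytes overlapped foxP3 T. The lymphoid T class values stood beside B cell markers summing to 1500 SPM in CD4 T and 905 in foxP3 T, against 6372 in the B cell class (14 markers, 0 of 14 at 0 in each); the part of B cell transcripts in them was not tested.

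The classical chains kept this order at the top. H2-Aa averaged 2812 ± 1011 SPM in the dendritic class and 1177 ± 177 in B cells, and H2-Ab1 averaged 2402 ± 989 and 926 ± 191. H2-Eb1 averaged 1717 ± 937 SPM in the dendritic class and 597 ± 156 in B cells. In the mice that had both classes, each of these chains and Cd74 was higher in dendritic than in B cell columns in 4 of 4 and higher in B cells than in granulocytes in 8 of 8. H2-Aa mice of the B cell class (875 to 1394 SPM) also stood clear of CD4 T (539 to 789), which overlapped foxP3 T (290.0 to 710.2) and granulocytes (106 to 740).

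**Figure D1:**
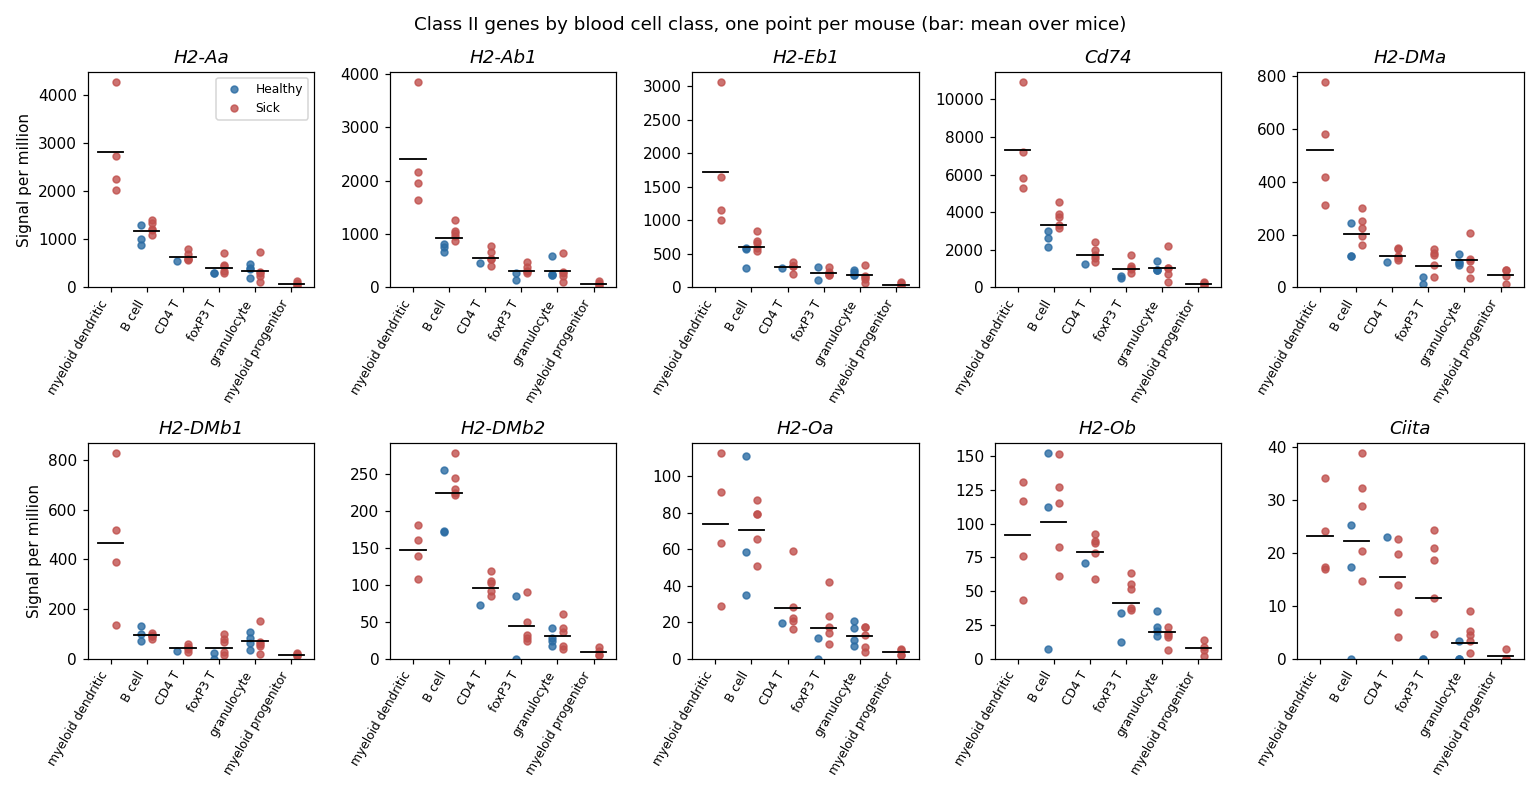
Level of each class II gene (SPM, linear axis from 0, scale differing by panel) in 6 blood cell classes; each point is 1 mouse with at least 5 columns of the class, blue healthy and red arthritic, and each bar is the mean over mice. The dendritic class leads in 8 of the 10 panels, and the B cell class leads for H2-DMb2 and H2-Ob.

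The chains of H2-DM parted from each other. H2-DMa followed the classical chains, at 522 ± 203 SPM in dendritic and 201 ± 65.9 in B cell columns. H2-DMb1 averaged 467 ± 287 SPM in the dendritic class, 94.0 ± 17.9 in B cells and 70.4 ± 39.7 in granulocytes. H2-DMb2 averaged 148 ± 31.4 SPM in the dendritic class, 225 ± 37.7 in B cells and 30.7 ± 15.3 in granulocytes. From B cells to the dendritic class, within a mouse, H2-DMb1 was higher in 4 of 4 mice (median 4.90 times) while H2-DMb2 was lower in 4 of 4 (median 0.641 times).

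Taken as a ratio, H2-DMb1 to H2-DMb2 signal separated the B cell and CD4 T classes of blood from the myeloid classes. The ratio is not corrected for transcript length, so it is read between classes and not as more of one copy than the other. It was 0.430 ± 0.135 in B cells (range 0.330 to 0.75, n = 8) and 0.427 ± 0.103 in CD4 T (0.273 to 0.556, n = 6). It was 2.51 ± 1.30 in granulocytes (0.833 to 5, n = 9), 3.18 ± 1.82 in the dendritic class (0.966 to 4.79, n = 4) and 2.15 ± 1.32 in myeloid progenitors (0.889 to 4, n = 4). The B cell and granulocyte ranges did not overlap, and in mice with both classes the granulocyte ratio was the higher in 8 of 8, with a median of 5.82 times. In foxP3 T the ratio ran from 0.267 to 3.5 over 6 mice (a healthy mouse listed both copies at 0), spanning both sides.

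The healthy granulocyte ratios rest on 1 to 7 H2-DMb2 signal a mouse, while the arthritic ones rest on 85 to 238. With each distinct column kept once and columns shared with the joint table left out, the pooled ratio was 0.355 in B cells, 2.47 in granulocytes and 2.73 in the dendritic class. The copies share sequence: 20.4% of the 50-base windows in the last 500 bases of the H2-DMb1 transcript also occur in H2-DMb2, and 0% of those of H2-DMb2 occur in H2-DMb1. How the authors assigned reads that match both is not given in the sources used here, so the ratio itself is uncertain.

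**Figure D2:**
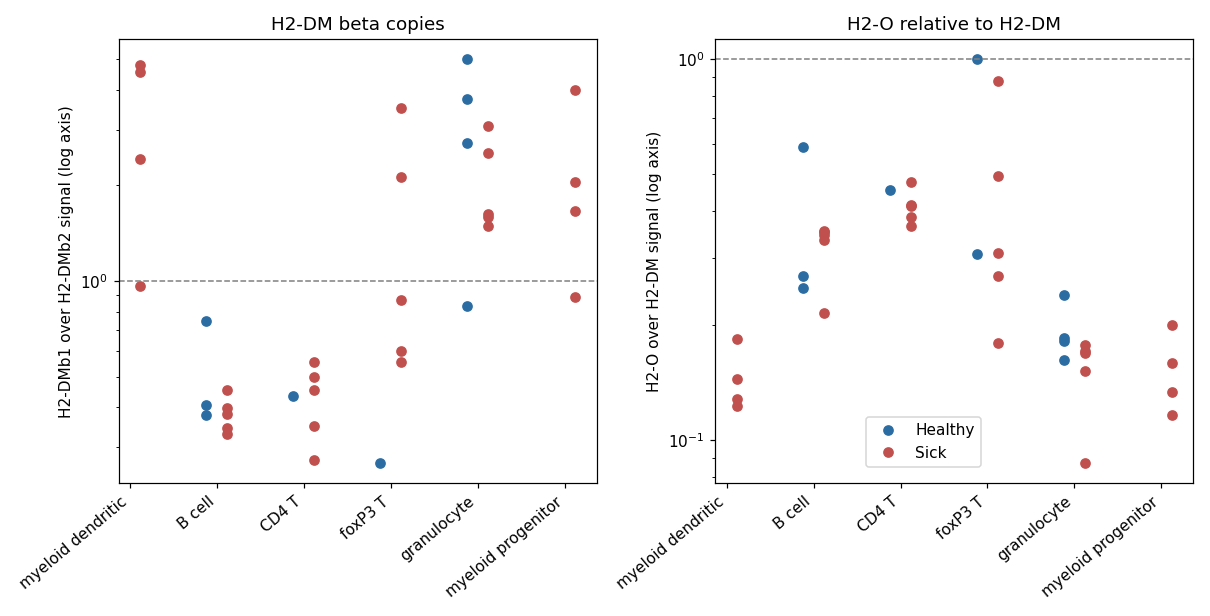
Ratio of H2-DMb1 to H2-DMb2 signal (left) and of summed H2-O to summed H2-DM signal (right), both on log axes, by blood cell class; each point is 1 mouse, blue healthy and red arthritic, and the dashed line marks 1. All 8 B cell mice lie between 0.330 and 0.75 on the left, below every granulocyte mouse, and on the right a B cell value of 0.216 falls below the highest granulocyte value of 0.240 while the other B cell and the CD4 T mice lie above it.

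H2-O, the inhibitor, reached similar levels in B cells and in the dendritic class. H2-Ob averaged 101 ± 49.2 SPM in B cells, 91.8 ± 39.8 in the dendritic class, 78.8 ± 12.2 in CD4 T, 41.5 ± 16.9 in foxP3 T and 19.9 ± 7.64 in granulocytes. Within a mouse it was lower in dendritic than in B cell columns in 4 of 4. H2-Oa averaged 70.7 ± 23.6 SPM in B cells and 74.0 ± 36.1 in the dendritic class, which overlapped, 27.7 ± 15.9 in CD4 T, 16.6 ± 13.3 in foxP3 T and 12.4 ± 5.84 in granulocytes. Without hemoglobin and immunoglobulin genes in the total, the highest class for H2-Oa became the B cell class.

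Relative to its target, summed H2-O signal was 0.339 ± 0.113 of summed H2-DM signal in B cells and 0.418 ± 0.042 in CD4 T. It was 0.170 ± 0.040 in granulocytes and 0.145 ± 0.028 in the dendritic class. The B cell value exceeded the granulocyte value in 8 of 8 mice and the dendritic value in 4 of 4. Across all mice the B cell range (0.216 to 0.587) and the granulocyte range (0.087 to 0.240) overlapped.

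Ciita was scarce everywhere. It averaged 22.1 ± 12 SPM in B cells, 23.1 ± 8.05 in the dendritic class, 15.4 ± 7.71 in CD4 T and 2.91 ± 3.00 in granulocytes. A healthy B cell mouse and 3 healthy granulocyte mice were listed at 0. Against 1000 signal of the classical chains, Ciita gave 7.99 ± 4.10 in B cells and 3.73 ± 1.62 in the dendritic class, and the ranges overlapped.

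Summed over the columns of all mice, the B cell class carried 53.4% of class II signal in the blood table and the granulocyte class 23.2%. CD4 T carried 9.44% and the dendritic class 8.62%. These shares also carry the size of each class in the table. Total signal of all genes was 13975769 in B cells, 27133247 in granulocytes, 5400907 in CD4 T and 1188096 in the dendritic class. The granulocyte share was concentrated. Granulocyte columns had a median of 846 SPM for the 10 genes together and a maximum of 28492, and the richest 10%, 190 columns, held 39.6% of that class's class II signal. The richest 10% held 35.1% in myeloid progenitors, close to the granulocytes, 26.0% in foxP3 T, 23.6% in CD4 T, 22.0% in the dendritic class and 17.3% in B cells. The 190 granulocyte columns came from 7 mice and all had at least 5955 SPM. The 5 arthritic mice gave 187 of them (98.4%) and 97.4% of all granulocyte columns. Arthritic mouse 6 alone gave 73 of the 190 from its 249 granulocyte columns, and arthritic mouse 5 gave 10 from 435.

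These richest granulocyte columns were chosen by the genes described, so other genes are given as description. Their 10 granulocyte markers summed to 50413 SPM against 189840 in the rest, and their 13 monocyte and macrophage markers to 22862 against 11611. Dendritic cell markers summed to 188 SPM against 47.2, and B cell markers to 1062 against 808. Their H2-DMb1 to H2-DMb2 ratio was 3.64 against 1.45 in the rest. Both copies were among the 10 genes used to choose the columns, so this ratio is no independent result. A granulocyte label thus covered columns with a lower granulocyte and a higher monocyte and macrophage marker sum where class II was high. The latter sum largely follows Lyz2, which averaged 12136 SPM in granulocytes of arthritic mice after scaling, beside 557 for Ly6c2. Over the whole granulocyte class it was 12336 SPM, above the 11002.5 of the myeloid dendritic class, so it does not single out monocytes. Within this class, arthritic mouse 6 had the lowest granulocyte marker sum of the arthritic mice (63273 SPM). It also had the highest monocyte and macrophage sum (19503 SPM). Differences between mice and between columns were not separated here, and the part of other cells in the class II signal was not tested.

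Antibody-secreting B cells were approached through Jchain, which joins IgM and IgA chains. B cell columns were split at 1000 SPM of Jchain in the 5 mice with at least 5 columns on each side. All 10 members had a median ratio of Jchain-poor to Jchain-rich columns above 1, for example 1.77 for H2-Aa, 1.44 for Cd74 and 2.23 for Ciita. Leaving immunoglobulin and Jchain signal out of the total brought these to 1.16, 1.01 and 1.47. H2-Eb1 was then still higher in Jchain-poor columns in 5 of 5 mice (1.03 to 1.96 times) and H2-DMb2 in 5 of 5 (1.09 to 1.57 times), while Cd74 was higher in 3 of 5. Xbp1, a plasma cell factor used as a check, was lower in Jchain-poor columns in 5 of 5 mice, at a median of 0.124 times. With the split at 300 SPM, 5 of 10 members had a median ratio above 1 with immunoglobulin and Jchain in the total. Without them 1 of 10 did (H2-DMb1 at 1.07), so the direction depended on where Jchain-rich began.

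Over 38 class-by-mouse profiles of blood, the non-member genes most like the summed class II level were Cd83, a marker of mature antigen-presenting cells (Pearson r = 0.927 on the log2 scale), Serp1 (0.918), Filip1l (0.905), Laptm5 (0.889) and Mndal (0.885), among 6190 genes compared. The profiles share libraries and depth, so r is a description. Among 9 members, pairwise r ran from 0.509 for H2-DMb1 and H2-Ob to 0.987 for H2-Ab1 and Cd74, with a median of 0.802.

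The study's question, whether blood cells of arthritic mice differ from those of healthy mice, was put to the class II genes first over all cells of each mouse. No difference was found that exceeded the spread between mice. Values here are scaled by TMM factors, and log2 differences are on the log2(SPM + 1) scale from limma. H2-Aa measured 669, 537, 501 and 763 SPM in healthy mice 1 to 4, and 454, 620, 471, 243 and 735 SPM in arthritic mice 1, 3, 4, 5 and 6. Of the arthritic mice, 3 lay below all healthy mice, mouse 5 lowest, and 2 lay within the healthy range, and the log2 difference was -0.36 ± 0.30 (SE, 95% interval -1.02 to 0.29, limma adjusted p = 0.548). Cd74 measured 1921, 1488, 1087 and 1486 SPM in healthy and 1418, 1971, 1295, 691 and 2030 SPM in arthritic mice, again overlapping, with a log2 difference of -0.08 ± 0.32 (-0.78 to 0.62, limma adjusted p = 0.911).

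Of the 9 members that passed the filter over all cells, limma called 0 at an adjusted p under 0.05, against 0.0473% of 8459 genes, and 0 reached an unadjusted p under 0.05, against 13.4%. In 0 of 9 did the arthritic mice lie all above (3.64% of genes) or all below (1.26%) the healthy ones. H2-DMa alone had a positive difference, and the median over the 9 was -0.16 against 0.26 over all genes. Ciita did not pass the filter, with 3, 47, 0 and 1 signal in the healthy mice. Granulocyte markers moved with the groups, summing to 5496 to 10614 SPM in healthy and 21325 to 157268 in arthritic mice (10 markers, 0 of 10 at 0 in the granulocyte class); their part in the class II values was not tested. In sums over all cells, fewer cells of a type and less RNA per cell cannot be told apart.

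**Figure D3:**
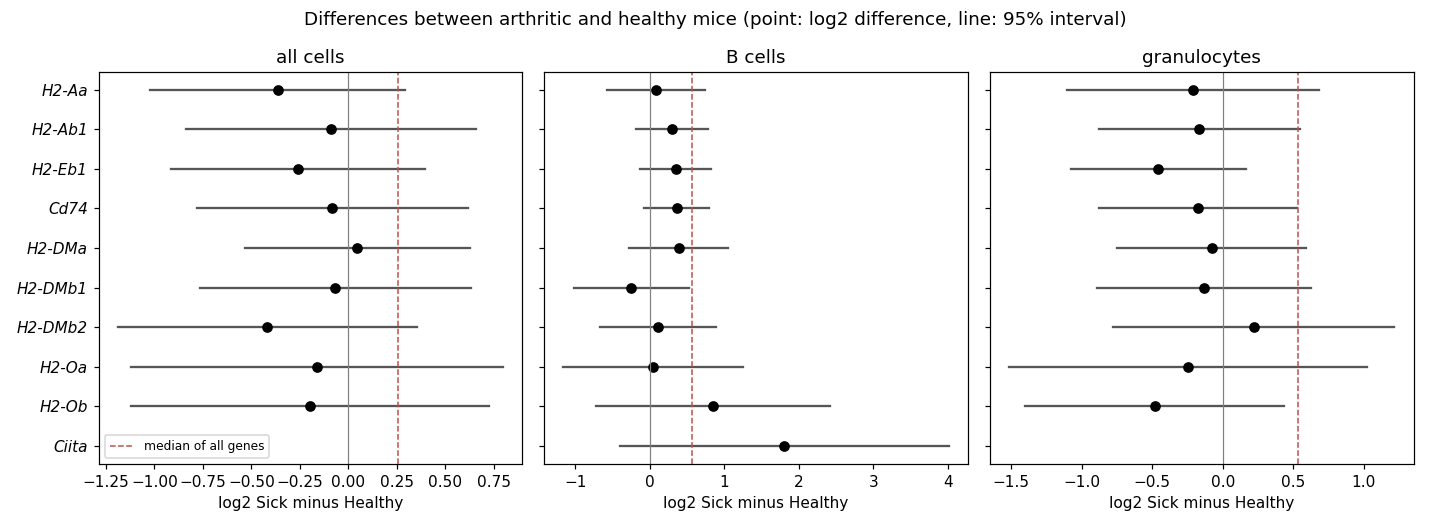
Log2 difference between arthritic and healthy mice for each class II gene over all cells, in B cells and in granulocytes (points, with 95% intervals from limma as lines; axes differ by panel). Every interval spans 0, and the dashed line is the median of all genes tested (0.26, 0.56 and 0.53); Ciita was tested in B cells only.

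Within B cells, compared in 3 healthy and 5 arthritic mice with at least 5 columns, no member passed the test. Among the classical chains and Cd74, the largest estimates were those of Cd74 and H2-Eb1. Estimates for H2-DMa (0.39 ± 0.30), H2-Ob (0.85 ± 0.71) and Ciita were larger. Cd74 measured 2433, 2552 and 3366 SPM in healthy mice 1, 2 and 4, and 3678, 4052, 3484, 3398 and 3115 SPM in the arthritic mice. After scaling, healthy mouse 4 lay among the arthritic mice and the other healthy mice below them. The log2 difference was 0.36 ± 0.20 (-0.08 to 0.80, limma adjusted p = 0.519). The place of healthy mouse 4 rested on its TMM factor of 0.632, the lowest of the 8 mice. Without scaling its Cd74 was 2129 SPM, also the lowest of the 8. H2-Eb1 measured 477, 553 and 461 SPM in healthy and 653, 747, 600, 540 and 626 SPM in arthritic mice, where only arthritic mouse 5 lay below healthy mouse 2 (0.35 ± 0.22, -0.13 to 0.82, limma adjusted p = 0.519). Ciita had the widest interval, 1.80 ± 1.00 (-0.41 to 4.01, limma adjusted p = 0.519), resting on 2, 25 and 0 signal in the healthy mice.

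In B cells limma called 0 of 10 members, against 0% of 9585 genes, and 0 of 10 reached an unadjusted p under 0.05, against 7.06%. On TMM-scaled values, which set the place of healthy mouse 4, the arthritic mice lay all above the healthy ones in 0 of 10 members (3.38% of genes). They lay all below in 0 (1.28%). On the log2 scale 9 of 10 differences were positive, with a median of 0.32 against 0.56 over all genes, but the mean SPM was lower in arthritic mice for 4 of 10 (H2-DMb1, H2-Aa, H2-DMb2 and H2-Oa). After scaling, H2-Aa averaged 1236 ± 697 SPM in healthy and 1191 ± 55.1 in arthritic mice, with healthy mouse 4 at 2040 SPM above all others. Without scaling the 8 mice ran from 875 to 1394 SPM, and healthy mouse 4 was not the highest. Plasma cell markers in this class summed to 605 to 3383 SPM in healthy and 966 to 40264 in arthritic mice (8 markers, 0 of 8 at 0). Granulocyte markers did not overlap between the groups, at 2326 to 2860 against 3423 to 5874 SPM, and monocyte and macrophage markers were 564 to 977 against 819 to 1742 SPM; their part in the class II values was not tested. The H2-DMb1 to H2-DMb2 ratio was 0.378 to 0.75 in the healthy and 0.330 to 0.455 in the arthritic B cells, which overlapped.

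In granulocytes, compared in 4 healthy and 5 arthritic mice, the members again did not pass. H2-Eb1 measured 199, 134, 298 and 227 SPM in healthy and 157, 146, 132, 105 and 239 SPM in arthritic mice, overlapping, with a log2 difference of -0.46 ± 0.28 (-1.08 to 0.16, limma adjusted p = 0.351). For Cd74 the difference was -0.18 ± 0.32 (-0.88 to 0.52, limma adjusted p = 0.75). Of 9 members tested, limma called 0, against 0.655% of 7935 genes, and 0 reached an unadjusted p under 0.05, against 21.6%. In 0 of 9 were the arthritic mice all above (8.65% of genes) or all below (1.4%) the healthy mice. The median difference was -0.18 against 0.53 over all genes, with H2-DMb2 alone positive. The part of depth in the medians over all genes, here and in the other comparisons, was not tested. The healthy values rest on 5 to 20 columns a mouse. Granulocyte markers in this class summed to 13523, 13529 and 16724 SPM in healthy mice 1, 3 and 4, below every arthritic mouse (63273 to 327724). Healthy mouse 2, with 5 columns, stood at 129286 SPM. Monocyte and macrophage markers were at 3968 to 11970 SPM in healthy and 5657 to 19503 SPM in arthritic mice. Osteoblast markers, at 119 to 384 and 36.9 to 78.3 SPM, did not overlap. The part of these markers in the class II values was not tested.

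Other genes of the pathway gave 0 calls over all cells in each of 5 lists. Of 9 genes for peptide loading and processing, 7 differences were positive with a median of 0.26, the same as over all genes. Among them Cd63, a tetraspanin of late endosomes where peptides are loaded, had the smallest p: 77.5, 16.2, 42.1 and 98.2 SPM in healthy and 274, 151, 201, 335 and 39.6 SPM in arthritic mice (1.74 ± 0.64, limma adjusted p = 0.313). Its groups overlapped through arthritic mouse 6 alone. Ifi30, the lysosomal thiol reductase, differed by 0.35 ± 0.32 and Ctss, the protease that trims the invariant chain, by -0.33 ± 0.32.

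Of 8 class II transcription genes tested, 5 differences were positive, with Rfxap, part of the X-box binding RFX complex, at -0.58 ± 0.30 (every arthritic mouse below every healthy one, 1.26% of genes; limma adjusted p = 0.399), Nfyb, part of the Y-box binding factor, at 0.53 ± 0.30, and Irf1 at -0.40 ± 0.25. Prdm1, the repressor of Ciita in plasma cells, differed by -0.78 ± 0.36, Irf4 by 0.68 ± 0.54 and Xbp1 by 0.17 ± 0.23. Of 5 costimulation and antigen presentation genes tested, 4 differences were negative with a median of -0.35, Cd40 at -0.51 ± 0.35, Cd83 at -0.56 ± 0.41 and Cd86 at -0.31 ± 0.27. Of 9 class I presentation genes, 4 differences were positive, with Tapbp at 0.20 ± 0.18, B2m at 0.18 ± 0.19 and Tap1 at 0.27 ± 0.35. In B cells and in granulocytes each of the 5 lists also had 0 calls by limma, and an unadjusted p under 0.05 was reached by 1 of 34 list genes over all cells (2.94%, against 13.4% of all genes), 2 of 36 in B cells (5.56%, against 7.06%) and 2 of 31 in granulocytes (6.45%, against 21.6%).

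Joint cells were deposited as a second table of 8423 columns that belong to none of the blood samples, so they are pooled by class, healthy and arthritic joints together, with no replicate and no error. Here macrophages could be read, which blood lacked (67 columns against 2). Joint macrophages measured 2412 SPM of H2-Aa and 5742 of Cd74, and joint dendritic columns (19) measured 4802 and 11418 SPM. Joint B cells (63 columns) measured 663 SPM of H2-Aa and 2586 of Cd74, and joint granulocytes (6487 columns) 117 and 349 SPM. Blood granulocytes pooled the same way held 55.5 SPM of H2-DMb1, and joint granulocytes 31.5. The tissues were not compared by a test.

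The H2-DMb ratio was again higher in myeloid columns than in B cells of the joint. H2-DMb1 and H2-DMb2 gave 354 and 45 signal in joint macrophages and 137 and 12 in dendritic columns, ratios of 7.87 and 11.4, and 50 and 120 in joint B cells, a ratio of 0.417. In joint granulocytes the ratio was 2.96. It was 0.875 in joint CD4 T (14 and 16 signal), 0.787 in joint foxP3 T and 2.33 in osteoblast columns (14 and 6 signal). Joint macrophages listed H2-Oa at 0 and H2-Ob at 1 signal out of 841511, beside 668 signal of H2-DM, whereas joint dendritic columns gave 50 signal of H2-O beside 235 of H2-DM and joint B cells 70 beside 269, ratios of 0.213 and 0.260. Ciita was listed at 0 in the macrophages, which carried 2030 signal of H2-Aa. With identical columns kept once and those shared with blood left out, macrophages (39 columns) kept 0 of H2-Oa and Ciita and measured 5918 SPM of Cd74. C1qb, a macrophage marker, stood at 3428 SPM in this class, and 10 of 13 monocyte and macrophage markers were highest there. Of 14 B cell markers 7 were listed at 0 and the list summed to 107 SPM, and of 10 dendritic cell markers 6 were at 0 and 1 was highest in this class, with a sum of 118 SPM.

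**Figure D4:**
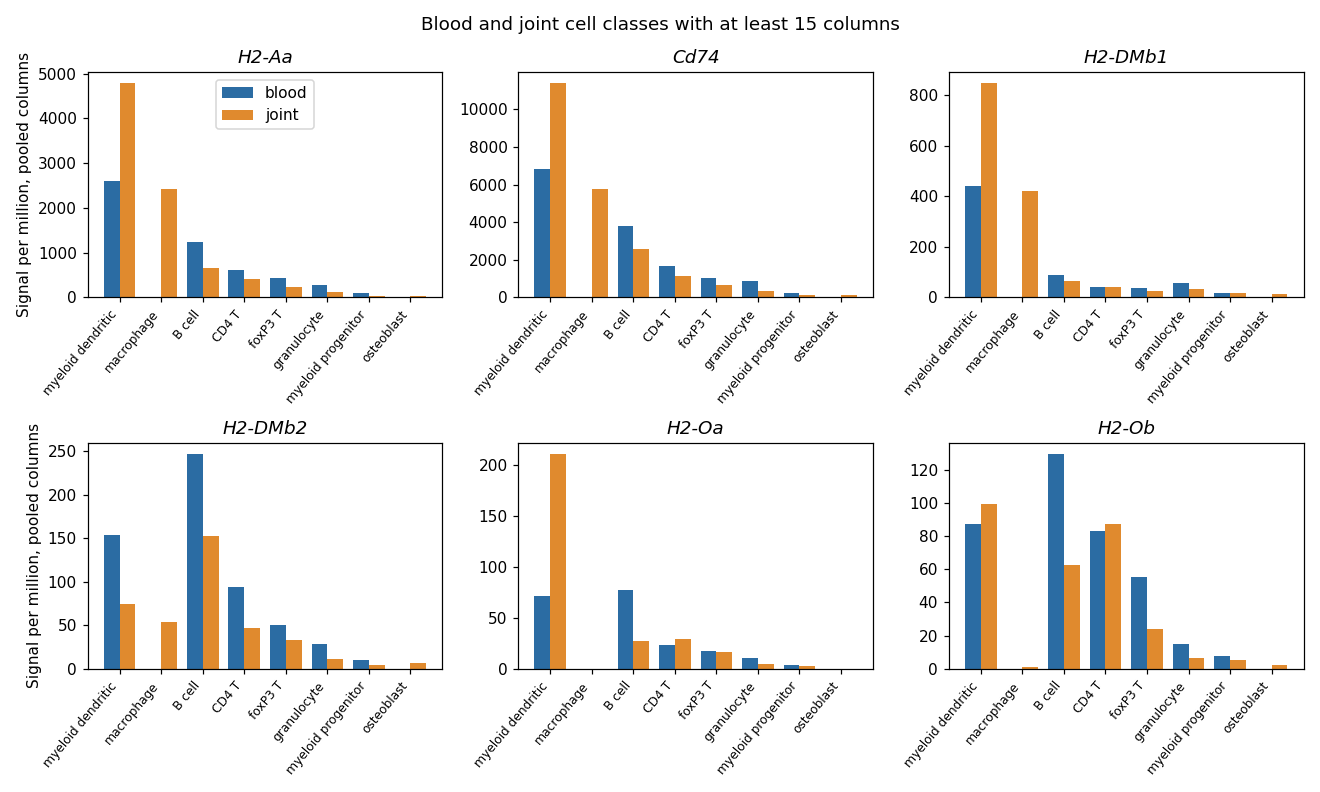
Level of 6 class II genes (SPM, bars from 0, scale differing by panel) in cell classes with at least 15 columns, pooled over columns, blue for blood and orange for joint; no bar means that the tissue had fewer than 15 columns of the class or a level of 0. Joint dendritic and macrophage columns carry H2-Aa, Cd74 and H2-DMb1, while the macrophage bars of H2-Oa and H2-Ob are at or near 0 (0 and 1.19 SPM).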

How the data were processed

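Both tables hold signal as the authors deposited it, a whole number for each gene and barcode. Per the labels' protocols, reads of the blood Seq-Well libraries went through the Drop-seq core computational protocol with GRCm38.p5; aligner, cell filter and class caller: not given in the sources used here. No label describes the joint table, whose values have the same form. Since columns appear to blend similar cells, signal was not treated as counts and no counting intervals are given.

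Signal was summed per mouse, or per mouse and class with at least 5 columns, scaled by TMM factors (trims 30% and 5%) and tested as log2(SPM + 1), two-sided, with limma 3.58.1 (trend, R 4.3.3), for genes at 10 SPM or more in as many mice as the smaller group. P-values were adjusted over all genes tested (Benjamini-Hochberg, threshold 0.05). They measure spread between mice, which shared columns make less independent than assumed. The fit was tested on simulated data. Ratios, shares and sums used Python 3.11.15, numpy 2.4.6 and pandas 2.3.3. Replicate numbers did not pair the mice (see the closing section).

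Members, lists and thresholds were chosen with earlier results of these data known. Named beside the members are the genes ranked 1 to 3 by p over all cells in each related list, and the 5 non-members (mean of at least 20 SPM) most correlated with summed class II signal; Xbp1 in the Jchain split and the markers were named as checks. All deposited columns were used. Immunoglobulin genes numbered 256 and hemoglobin genes 12. Alternatives changed scaling, filter (none, 50 SPM), pseudocount (0.5, 5), weights, columns, mice, depth and a replicate block.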

Additional observations from a re-analysis of the deposited data

Results flagged for a closer look

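Of 86 groups of 4 or 5 mice examined, 3 held a mouse far from the others, and chance flags about 1 in 20. H2-Ob in healthy granulocytes was 12.2 SPM in healthy mouse 2, after scaling, far below the other 3 mice at 26.3 to 27.9 SPM. That value rests on 5 columns and 1 signal, beside 5, 3 and 7 signal in healthy mice 1, 3 and 4. It also depends on scaling, with TMM factors of 1.28, 1.37, 0.781 and 0.832 in healthy mice 1 to 4. H2-Oa in the CD4 T class was 59.2 SPM in arthritic mouse 5, far above the other arthritic mice at 16.4 to 28.3 SPM, from 7 columns. Ciita in myeloid progenitors was 1.80 SPM in arthritic mouse 3, with the other 3 arthritic mice listed at 0.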

How the results depend on the processing

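Under every alternative that could be run, limma called 0 members in each comparison, with the members' adjusted p between 0.404 and 0.998 over all cells, 0.202 and 1.00 in B cells, and 0.198 and 0.997 in granulocytes. The direction of uncalled differences did not hold. With identical columns removed, the log2 differences over all cells turned to 0.068 (H2-Aa), 0.089 (H2-Ab1), 0.069 (Cd74), -0.015 (H2-DMa), 0.0024 (H2-DMb1), 0.13 (H2-DMb2) and 0.078 (H2-Oa). In B cells they turned to 0.16 (H2-DMb1) and -0.15 (H2-Oa). In granulocytes they turned to 0.44 (H2-Aa), 0.26 (H2-Ab1), 0.055 (H2-Eb1), 0.022 (H2-DMa), 0.036 (H2-DMb1) and 0.80 (H2-Ob). That setting left healthy mouse 2 with 2 granulocyte columns and healthy mouse 4 with 3 B cell columns. Both mice were kept although they fell below the minimum of 5 columns. Median-of-ratios factors turned H2-DMa over all cells to -0.060 and, in B cells, H2-Aa to -0.051, H2-DMb2 to -0.024 and H2-Oa to -0.085. TMM factors without hemoglobin and immunoglobulin genes turned H2-DMa in granulocytes to 0.033, and array weights turned H2-Oa to 0.16 over all cells and 0.36 in granulocytes. Thinning to the smallest total turned H2-DMa over all cells to -0.24 and H2-DMb2 in granulocytes to -1.60. The cause was not tested.

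The replicate numbers did not pair the mice: deviations of same-numbered mice correlated at -0.0041, -0.29 and 0.30 over all cells. With a replicate block, 0 members were called, and all genes called numbered 40 over all cells, 13 in B cells and 190 in granulocytes. The block turned Cd74 to 0.044, H2-Ab1 to 0.043, H2-DMa to -0.018, H2-Oa to 0.051 and H2-Ob to 0.32 over all cells, H2-Aa in B cells to -0.00069, and H2-DMb2 and H2-Oa in granulocytes to -0.0093 and 0.13.

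Leaving out 1 mouse at a time called 0 members and turned 15, 8 and 24 of the 81, 80 and 81 values over all cells, in B cells and in granulocytes. Arthritic mouse 5 turned the most over all cells (5 of 9) and in granulocytes (6 of 9). Over all cells the ranges that crossed 0 were -0.35 to 0.14 (H2-Ab1), -0.24 to 0.17 (Cd74), -0.10 to 0.21 (H2-DMa), -0.28 to 0.17 (H2-DMb1), -0.51 to 0.11 (H2-Oa) and -0.44 to 0.12 (H2-Ob). In B cells they were -0.11 to 0.58 (H2-Aa), -0.55 to 0.10 (H2-DMb1), -0.060 to 0.64 (H2-DMb2), -0.38 to 0.81 (H2-Oa) and -0.18 to 1.57 (H2-Ob). In granulocytes they were -0.44 to 0.12 (H2-Aa), -0.27 to 0.16 (H2-Ab1), -0.28 to 0.19 (Cd74), -0.15 to 0.23 (H2-DMa), -0.25 to 0.22 (H2-DMb1) and -0.58 to 0.23 (H2-Oa).

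Members highest in the dendritic class numbered 8 in blood and 7 without hemoglobin and immunoglobulin genes in the total. In the joint they numbered 8 with all columns and 8 with distinct columns, an alternative chosen after seeing the data. A Jchain threshold of 300 SPM left 5 of 10 members with a median poor to rich ratio above 1. With immunoglobulin and Jchain signal also left out of the total it left 1 of 10, a setting chosen after seeing the data. A threshold of 3000 SPM, where 3 mice had enough columns, left 10. The healthy mice limit the comparisons, with 9 to 111 B cell columns and 5 to 20 granulocyte columns in each mouse compared, and every member's 95% interval reached 0.5 or more on the log2 scale in at least 1 direction.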

Other observations

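The mast cell class, 5 columns in blood and 17 in the joint, carried exactly 1 signal of H2-Oa in every column (5 of 5 and 17 of 17) beside a summed 6 and 30 signal of the other 9 members. Only 2 of the blood columns and 5 of the joint columns were distinct, so few independent columns lie behind it.

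Of the 6487 joint granulocyte columns, 968 were identical to a blood column. The richest 10% of the class, 649 columns with at least 1797 SPM of class II signal, had an H2-DMb1 to H2-DMb2 ratio of 5.12. It was 2.30 in the rest, the direction seen in blood. Both copies were among the genes used to choose these columns, so the ratio is no independent result. Their granulocyte markers summed to 92259 SPM against 188420 and their monocyte and macrophage markers to 18542 against 10497. B cell markers summed to 1261 SPM against 277, dendritic cell markers to 117 against 33.2 and NK cell markers to 127 against 23.5.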
